A study of Oryctolagus cuniculus with 20 samples.

Results

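Growth factors that signal through receptor tyrosine kinases, together with those receptors, were followed across rabbit arteries that had been moved into a vein. The 75 genes described here were chosen by name, not by their values: the FGF, PDGF, VEGF, IGF, FLT, ERBB, angiopoietin, angiopoietin-like and ALKAL genes, and EGF, EGFR, HBEGF, AREG, EREG, HGF, MET, KIT, KITLG, KDR, TEK, TIE1, PGF, AXL and MERTK. They are 75 of the 23669 genes in the table. The name patterns also caught 6 genes that are neither ligand nor receptor of these families or act elsewhere (FGFR1OP, FGFR1OP2, IGF2BP1, IGF2BP2, IGF2BP3 and IGFLR1). GAS6, VEGFB, IGF2, IGFBP3 and FGFR3 were not analysed here. Of the 75 genes, 48 reached 1 FPKM (fragments per kilobase of transcript, scaled to the mapped fragments of the library) in at least 4 libraries and were tested, and 27 did not.

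The libraries were made from total RNA of Oryctolagus cuniculus vessels, with 5 groups of 4 libraries. Grafts were pieces of common carotid artery transplanted into vein and taken on day 14 or day 30 after surgery. Controls were the contralateral common carotid arteries, which were not operated on, taken on the same days. The last group was unoperated external jugular vein. All 20 samples carry the treatment tag "transplatation", controls and vein included, and the cell line tag HASMC, which goes against the tissue, organism and vessel labels. No strain, age or sex is given. The titles number the libraries of a group as biological replicates. The labels do not say that they came from separate animals, so p-values measure the spread between these samples. That spread was estimated per gene over all 5 groups together, not from the compared libraries alone, although the groups differed in spread. The labels name whole tissue, and a graft taken from a vein can include tissue of its new surroundings.

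Receptor tyrosine kinases sit in the cell membrane, pair up when a ligand binds and phosphorylate one another, which starts the RAS and MAP kinase and the PI3 kinase cascades. In vessel walls PDGF acts mainly on smooth muscle cells and pericytes, VEGF and the angiopoietins act mainly on endothelium, and IGF1 acts on many cell types with binding proteins that hold it in the matrix or the circulation. FGFs act on mesenchymal and epithelial cells with heparan sulfate as a cofactor, and the ERBB receptors, KIT, FLT3, MET and AXL serve further ligands on Schwann cells, blood cells, endothelium and macrophages.

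Depth cannot be given, because the values are FPKM and hold no read numbers. The control libraries of day 14 were close to one another, with a median SD of log2 values of 0.0732 over 1264 genes above 30 FPKM, against 0.324 in grafts of day 14, 0.198 in controls of day 30, 0.189 in grafts of day 30 and 0.135 in vein. In each of the last 4 groups a library lay close to a weighted mean of the other 3 (graft day 14 replicate 3, control day 30 replicate 2, graft day 30 replicate 4 and vein replicate 4), and these are called mixture-like below. Their median absolute log2 differences from that mean were 0.0774, 0.0879, 0.0824 and 0.0796. The next nearest libraries of those groups were at 0.12, 0.156, 0.172 and 0.103, and the day 14 controls at 0.0791 to 0.0825. Weights were fitted for every library and no cutoff was set, so each group has a nearest library by construction. Summed FPKM of 7 smooth muscle markers was 8313 to 8831 in controls and 617 to 935 in grafts of day 14, 6084 to 8727 and 1355 to 1783 on day 30, and 3587 to 3863 in vein. SMTN, a defining smooth muscle gene, was listed at 0 in every library, so a listed 0 can be a failed estimate. In such whole tissue, fewer cells of a type and less RNA per cell cannot be told apart, and this holds for every result that follows.

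Grafts differed from the opposite artery in most of the tested genes. On day 14, 21 of 48 genes were higher in grafts and 15 were lower, against 36.5% and 17% of all 8657 genes tested. These are 43.8% and 31.2% of the 48. The median log2 difference of the 48 was 0.49, against 0.26 over all genes. The values of the 4 grafts did not overlap those of the 4 controls in 34 of 48 genes, 70.8%, against 50.1% of all genes. On day 30, 21 genes were higher and 10 lower, 43.8% and 20.8% of the 48, against 26% and 11.6% of all genes. The median was 0.60 against 0.18, and 30 of 48 genes, 62.5%, did not overlap, against 34.5%.

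All differences are on the log2(FPKM + 1) scale, which understates the change of low genes, and come from limma with adjustment over all 8657 genes and a threshold of 0.05. The split between higher and lower calls depends on scaling. With median-of-ratios scaling, day 14 gave 18 higher and 18 lower members, and with quantile normalization 17 and 18, while all genes went from 3161 higher and 1473 lower to 2369 and 2140, and to 2192 and 2280. Median-of-ratios scaling moved the median of all genes on day 14 from 0.26 to 0.04. On day 30 the members split into 21 and 13, 18 and 15, or, scaled to TPM, 17 and 13, and the median of all genes moved from 0.18 to 0.03, -0.06 and -0.02. Of the 36 calls of day 14, 20 held under every alternative that could be run for them, and of the 31 calls of day 30, 23 did.

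**Figure D1:**
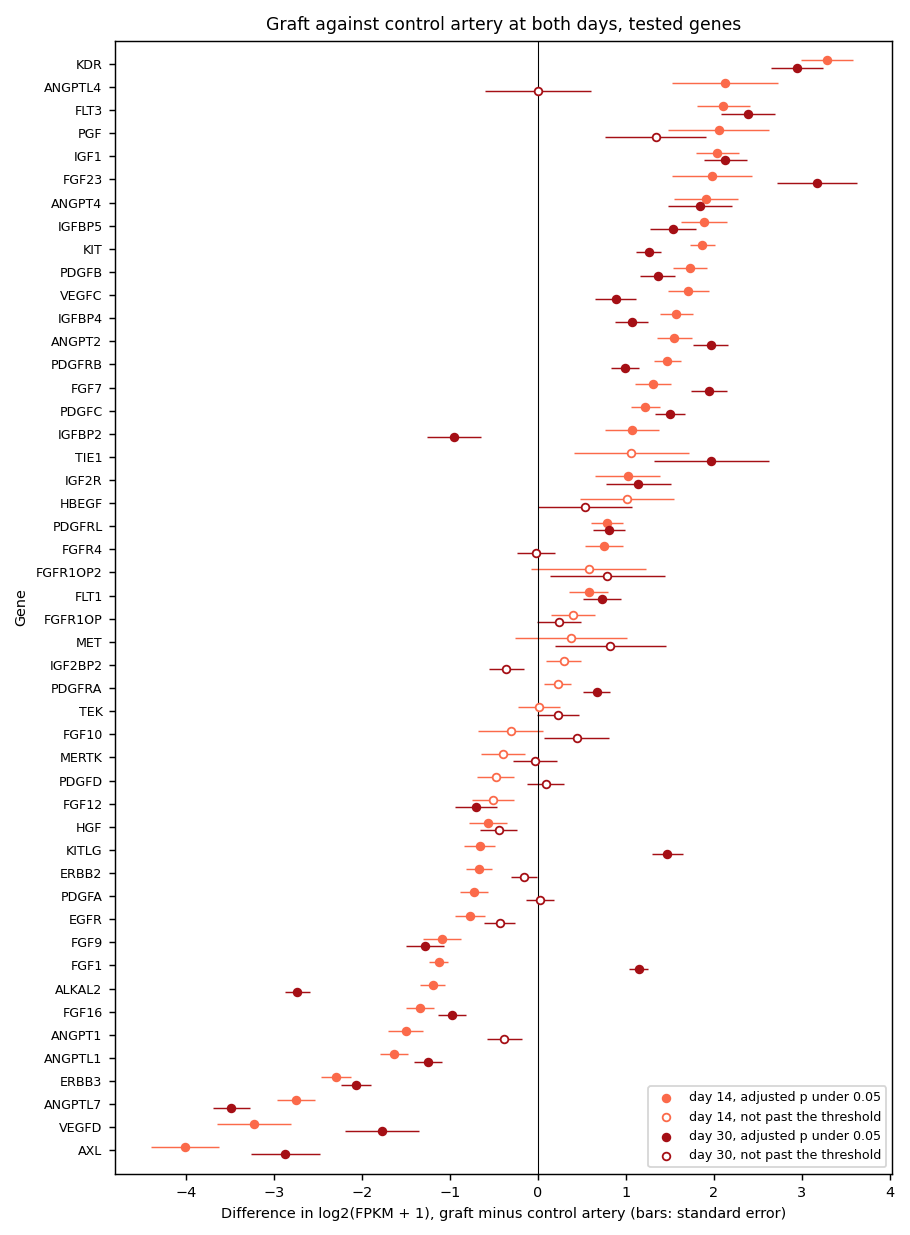
Difference in log2(FPKM + 1) between graft and control artery for the 48 tested genes on day 14 (light red) and day 30 (dark red), ordered by the day 14 difference, with standard errors from limma. Filled points have an adjusted p under 0.05 and open points do not; KDR lies at the top with 3.29 and 2.94, and AXL, listed at 0 in all 4 grafts of day 14, at the bottom, where the size depends on the pseudocount.

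By role, 9 of 21 tested ligands were higher and 9 lower on day 14, 42.9% and 42.9%, against 36.5% and 17% of all genes. On day 30, 10 were higher and 4 lower, 47.6% and 19%, against 26% and 11.6%. Of 15 tested tyrosine kinase receptors, 6 were higher and 4 lower on day 14, 40% and 26.7%, so that the share of higher receptors was near that of all genes. On day 30, 7 were higher and 2 lower, 46.7% and 13.3%. The median differences were -0.31 and 0.89 for ligands and 0.38 and 0.67 for receptors, against 0.26 and 0.18 over all genes, and ligands were not tested against receptors. All 3 tested IGF binding proteins were higher on day 14. Across both days 17 genes were higher on each day and 8 were lower on each. Counts over both days were not made for all genes, so these have no share to be set against. FGF1 and KITLG were lower on day 14 and higher on day 30, IGFBP2 was higher on day 14 and lower on day 30, and 9 genes passed on neither day.

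The receptor with the largest rise was KDR, the main signalling receptor for VEGF on endothelium. In control arteries of day 14 it read 0.54, 0.64, 0.64 and 0.49 FPKM, and in grafts 21.4, 15.9, 11.8 and 10.6. On day 30 the controls read 0.42, 1.45, 2.36 and 0.4 FPKM and the grafts 15.9, 19.3, 9.6 and 14.8. Every graft lay above every control on both days, a log2 difference of 3.29 (SE 0.29, adjusted p = 5.0e-08) on day 14 and 2.94 (SE 0.29, adjusted p = 4.5e-07) on day 30. FLT1, a VEGF receptor that also binds PGF and acts largely as a decoy, was low, with 0.19 ± 0.0678 FPKM in controls and 0.82 ± 0.517 in grafts of day 14 (mean ± SD, n = 4 in this and all later values of that form), a log2 difference of 0.58 (SE 0.22, adjusted p = 0.0341). That call was lost without control day 14 replicate 2, 3 or 4 (adjusted p = 0.0649, 0.0537 and 0.075) and under all 3 other scalings (up to 0.304). On day 30 FLT1 differed by 0.73 (SE 0.22, adjusted p = 0.0138), again lost with quantile normalization and TPM scaling (adjusted p up to 0.154). FLT4, the receptor for VEGFC and VEGFD on lymphatic endothelium, stayed under 1 FPKM in every library and was not tested.

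The ligands of these receptors moved in opposite directions. VEGFC, which drives lymphatic vessel growth, read 2.06, 1.65, 2.54 and 1.62 FPKM in controls and 12.1, 14.1, 6.05 and 5.18 in grafts of day 14, with no overlap, a log2 difference of 1.71 (SE 0.23, adjusted p = 7.1e-06). On day 30 it read 5.18, 4.95, 4.53 and 3.85 FPKM in controls and 7.13, 11.3, 8.8 and 10.7 in grafts, a log2 difference of 0.89 (SE 0.23, adjusted p = 0.006), which was lost with quantile normalization (adjusted p = 0.0557). VEGFD, the other ligand of that receptor, went the other way. It read 8.11, 9.89, 10.2 and 6.07 FPKM in controls of day 14 and was listed at 0 in all 4 grafts (adjusted p = 4.4e-06). Controls of day 30 read 8.11, 2.35, 0.05 and 5.04 FPKM and grafts 0, 0, 0.4 and 0, a log2 difference of -1.78 (SE 0.42, adjusted p = 0.003), and control replicate 3 lay within the range of the grafts. PGF, placental growth factor, read 2.08, 2.64, 0 and 0.1 FPKM in controls and 5.93, 8.59, 7.46 and 5.56 in grafts of day 14. All 4 grafts lay above the controls, a log2 difference of 2.06 (SE 0.58, adjusted p = 0.006), a call lost with the day 14 controls counted as 1 sample (adjusted p = 0.137). On day 30 the grafts spread from 0.86 to 11.6 FPKM and overlapped the controls (adjusted p = 0.0789).

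In grafts, markers of endothelium were mostly higher, as KDR and VEGFC were. Of 6 tested endothelial markers, 5 were higher and 1 lower in grafts of day 14, with a summed level over 7 genes of 60.8 to 63.5 FPKM in controls and 208 to 509 in grafts. On day 30, 5 of 6 were higher, and the sums were 72.5 to 172 and 502 to 638. PECAM1 was listed at 0 in all control arteries. In vein the endothelial sum was 650 to 828 FPKM, above every graft, and VWF made up most of it (404.5 to 509.8). Of these markers only VWF lay above every graft. CDH5, at 31.5 to 36.6 FPKM in vein, lay under every graft (37.6 to 87.8), and the others overlapped the grafts. KDR in vein read 1.75 to 4.75 FPKM, under every graft, and VEGFC 6.39 to 8.78, within the range of the grafts. The 5 lymphatic markers summed to 14.5 to 18.2 FPKM in controls and 91.3 to 188 in grafts of day 14, and to 20.6 to 191 and 330.0 to 376 on day 30, with RELN listed at 0 in grafts of day 14 and controls of day 30. CCL21 and LYVE1 made up most of the graft sums, and PROX1, a defining lymphatic gene, was at most 0.37 FPKM in any library. The part of cell numbers in the KDR and VEGFC differences was not tested.

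Among the angiopoietins, ligands of TEK, the agonist ANGPT1 was lower in grafts and ANGPT2 and ANGPT4 were higher. ANGPT1, made mainly by mural cells, read 11, 10.7, 11.2 and 11.9 FPKM in controls and 4.8, 3.07, 2.98 and 2.64 in grafts of day 14. The groups were far apart, a log2 difference of -1.50 (SE 0.20, adjusted p = 4.4e-06), whereas on day 30 they overlapped, with 6.02, 7.55, 6.91 and 7.9 FPKM in controls and 8.49, 5.2, 3.15 and 4.98 in grafts (adjusted p = 0.142). ANGPT2, released by endothelium and able to oppose ANGPT1, read 2.33, 1.93, 2.38 and 1.85 FPKM in controls and 8.46, 10.8, 7.32 and 6.44 in grafts of day 14. On day 30 the controls read 1.97, 1.78, 1.11 and 3.5 and the grafts 12.4, 11.8, 7.96 and 10.8 FPKM. Both days were without overlap, with differences of 1.55 (SE 0.20, adjusted p = 3.5e-06) and 1.97 (SE 0.20, adjusted p = 5.1e-07). ANGPT4, another TEK ligand, read 0.95, 1.02, 1.29 and 1.27 FPKM in controls and 14.9, 10.6, 4.32 and 3.18 in grafts of day 14, a log2 difference of 1.91 (SE 0.37, adjusted p = 2.5e-04). Replicates 1 and 2 of those grafts were the high ones, and the call was lost with the day 14 controls as 1 sample and without the mixture-like libraries (adjusted p = 0.068). By day 30 the values were 1.3, 1.57, 2 and 1.2 FPKM in controls and 9.55, 7.23, 7.54 and 7.76 in grafts, a log2 difference of 1.84 (SE 0.37, adjusted p = 6.0e-04), with every graft above every control.

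Of the receptors of this system, TEK passed on neither day and TIE1 on day 30. TEK, the angiopoietin receptor, read 2.6, 3.38, 3.45 and 2.78 FPKM in controls and 4.28, 4.92, 2.45 and 1.56 in grafts of day 14, and 5.7, 6.6, 7.33 and 3.6 and 7.79, 6.26, 5.57 and 7.74 on day 30. The groups overlapped on both days, with differences of 0.01 and 0.23 that did not pass (adjusted p = 0.967 and 0.501). TIE1, its partner receptor with no ligand of its own established, was listed at 9.27, 11.2, 0.11 and 0 FPKM in grafts of day 14, so that replicates 1 and 2 stood above all controls and replicates 3 and 4 at or near 0 (adjusted p = 0.184). The day 30 values were 0.43 ± 0.487 FPKM in controls and 4.66 ± 1.88 in grafts, a log2 difference of 1.97 (SE 0.65, adjusted p = 0.0236). That call was lost without control replicate 3 (adjusted p = 0.0591), graft replicate 1 (0.0611) or graft replicate 3 (0.0511), and with quantile normalization (0.0552).

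Angiopoietin-like proteins are secreted relatives that do not bind TEK. ANGPTL7, a matrix-associated member, read 6.14, 6, 6.03 and 5.27 FPKM in controls and 0.01, 0.03, 0.01 and 0.01 in grafts of day 14, and 6.71, 13.8, 19.6 and 7.69 and 0.06, 0, 0.14 and 0.07 on day 30. It was near 0 in all 8 grafts, with differences of -2.75 (SE 0.21, adjusted p = 9.3e-09) and -3.49 (SE 0.21, adjusted p = 1.5e-09). ANGPTL1 read 17.6, 17.1, 19.1 and 18.1 FPKM in controls and 6.19, 5.91, 4.18 and 4.3 in grafts of day 14, and 55.3, 44.4, 37.3 and 50.5 and 22.7, 13.3, 21.6 and 19.3 on day 30. It was lower in every graft than in every control of the same day, -1.64 and -1.25 (adjusted p = 1.2e-07 and 6.6e-06). ANGPTL4, an inhibitor of lipoprotein lipase, went the other way on day 14, with 2.06, 1.78, 2.05 and 1.97 FPKM in controls and 4.06, 8.66, 21.3 and 24.8 in grafts, a log2 difference of 2.13 (SE 0.60, adjusted p = 0.006). The day 30 controls read 4.7, 14, 24.8 and 2.92 FPKM and the grafts 16.5, 1.92, 13.2 and 10.8, and the difference was -0.00 (adjusted p = 0.999). The 5 adipocyte markers summed to 53.1, 269.8, 446 and 84.2 FPKM in those 4 controls, high in the same replicates 2 and 3 as ANGPTL4, and to 49.3 to 52.7 and 294 to 1427 FPKM in controls and grafts of day 14, with CIDEC listed at 0 throughout and LEP in grafts of day 14. In those grafts the sum was mostly FABP4 (166, 266, 740.2 and 859.6 FPKM) and LPL (49.6, 80, 436 and 521), while ADIPOQ, a defining adipocyte gene, read 77.9, 90.1, 50.3 and 46.6 and was lower in replicates 3 and 4, where ANGPTL4 was higher. Their part in the ANGPTL4 values was not tested. The day 14 call of ANGPTL4 was lost with the day 14 controls as 1 sample (adjusted p = 0.15).

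In the PDGF family, PDGFRB, PDGFRL, PDGFB and PDGFC were higher in grafts on both days, while PDGFA and PDGFD, the ligands with the highest FPKM in control arteries, were not. PDGFRB, the receptor of smooth muscle cells and pericytes, read 20.8, 20.7, 23 and 21 FPKM in controls and 76.5, 58.4, 60.3 and 51.4 in grafts of day 14. On day 30 it read 28.4, 24.9, 19.6 and 25.3 FPKM in controls and 61.1, 54.2, 36 and 49.8 in grafts. All grafts lay above all controls, a log2 difference of 1.47 (SE 0.16, adjusted p = 4.1e-07) on day 14 and 0.99 (SE 0.16, adjusted p = 7.3e-05) on day 30, while the smooth muscle markers given above were lower in the same grafts (5 of 5 tested on each day). PDGFRA, the receptor of fibroblasts, did not pass on day 14, at 3.38 ± 0.483 against 4.2 ± 1.09 FPKM (adjusted p = 0.225), and was higher in grafts of day 30, at 3.72 ± 0.623 against 6.47 ± 0.366, a log2 difference of 0.67 (SE 0.15, adjusted p = 0.002), a call lost with TPM scaling (adjusted p = 0.152). PDGFRL, a related secreted protein with no kinase, was higher on both days, at 37.1 ± 2.39 against 65.3 ± 9.64 FPKM and 55.6 ± 18.5 against 94.4 ± 8.8, with differences of 0.79 (SE 0.19, adjusted p = 0.002) and 0.81 (SE 0.19, adjusted p = 0.002). The first was lost with the day 14 controls as 1 sample (adjusted p = 0.0825) and the second with TPM scaling (0.0626).

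The ligands split within the family. PDGFB, the main ligand of PDGFRB, went from 0.095 ± 0.0507 to 2.66 ± 0.55 FPKM on day 14, a log2 difference of 1.73 (SE 0.20, adjusted p = 9.0e-07), and from 0.25 ± 0.305 to 2.2 ± 0.701 on day 30, 1.36 (SE 0.20, adjusted p = 2.9e-05). PDGFC, a ligand activated by proteolysis, was 1.81 ± 0.239 in controls and 5.73 ± 1.8 FPKM in grafts of day 14, and 1.79 ± 0.276 and 6.93 ± 0.858 on day 30, with differences of 1.22 and 1.50 (adjusted p = 7.2e-06 and 1.6e-06). PDGFA, the ligand of PDGFRA, was lower in grafts of day 14, at 20.3, 20.5, 20.1 and 20.9 FPKM in controls against 10.2, 14.5, 11.7 and 11.9, a log2 difference of -0.73 (SE 0.16, adjusted p = 8.5e-04). Controls of day 30 read 11.3, 18.8, 17.6 and 21 FPKM and grafts 21.1, 17.6, 14.2 and 16, a difference of 0.02 (adjusted p = 0.931). The day 14 call of PDGFA was lost with those controls as 1 sample (adjusted p = 0.0649). PDGFD, the PDGF ligand with the highest mean level over all libraries, read 23.4, 25.1, 25.2 and 25.4 FPKM in controls and 15.9, 11.4, 23.2 and 21.7 in grafts of day 14, and 21.2, 23.4, 32.4 and 20 and 31.1, 26.7, 18.4 and 27 on day 30. Its groups differed on neither day by more than the threshold (adjusted p = 0.0633 and 0.782).

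Among the IGF genes, binding proteins reached the highest levels. IGFBP4 had the highest mean FPKM of the 75 genes in each of the 5 groups. IGF1, a growth and survival factor of mesenchymal cells that macrophages also make, read 10.1, 10.6, 7.72 and 5.69 FPKM in controls and 35.8, 56.7, 34 and 27.8 in grafts of day 14. On day 30 the controls read 13.6, 11.4, 21.7 and 10.1 and the grafts 75.7, 55.5, 61.1 and 61.8 FPKM. No graft overlapped a control, a log2 difference of 2.04 (SE 0.25, adjusted p = 1.7e-06) on day 14 and 2.13 (SE 0.25, adjusted p = 2.4e-06) on day 30. IGFBP5, a binding protein that attaches to matrix, read 51.9, 52.5, 53.2 and 51 FPKM in controls and 359, 218, 153 and 122 in grafts of day 14, and 91.6, 83, 114 and 50.6 and 297, 229.9, 200.0 and 234 on day 30. Its grafts were all above the controls, with differences of 1.89 (SE 0.26, adjusted p = 8.8e-06) and 1.54 (SE 0.26, adjusted p = 1.5e-04). IGFBP4, a soluble inhibitor of IGF1 that is cut by a protease, read 132, 129.8, 135 and 134 FPKM in controls and 534, 581, 300.0 and 264 in grafts of day 14, and 250.4, 201, 219.6 and 179 and 454, 460.4, 420.4 and 442 on day 30. Its differences were 1.57 (SE 0.19, adjusted p = 1.6e-06) and 1.07 (SE 0.19, adjusted p = 2.0e-04), without overlap. Replicates 1 and 2 of the day 14 grafts were the highest for both binding proteins.

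IGFBP2, which binds IGF1 and IGF2 in extracellular fluid, was higher in grafts of day 14 and lower in those of day 30. It read 59.5, 60.5, 54.8 and 62.7 FPKM in controls and 219, 205, 87.4 and 62.5 in grafts of day 14, where replicates 1 and 2 were far above the controls and replicate 4 was level with them, a log2 difference of 1.07 (SE 0.31, adjusted p = 0.007). By day 30 the values were 109.9, 95.3, 76 and 117 FPKM in controls and 63, 61.2, 37.7 and 43.2 in grafts, all lower, a log2 difference of -0.96 (SE 0.31, adjusted p = 0.0196). The day 14 call was lost with median-of-ratios scaling and quantile normalization (adjusted p = 0.0563 and 0.0577), and with those controls as 1 sample (difference 1.065). The day 30 call was lost without control replicate 4 (adjusted p = 0.0558), graft replicate 3 (0.0633) or graft replicate 4 (0.0537), and without the mixture-like libraries (0.0949). IGF2R, a receptor without kinase that carries IGF2 and lysosomal enzymes, read 13.6, 11.7, 45.5 and 54.3 FPKM in grafts of day 14 against 11.9 ± 0.548 in controls, high in replicates 3 and 4 alone, a log2 difference of 1.02 (SE 0.37, adjusted p = 0.0268). That call was lost without graft replicate 3 (adjusted p = 0.105), graft replicate 4 (0.112, with the difference at 0.66), control replicate 1 (0.0537) or control replicate 4 (0.0512). It was also lost with median-of-ratios, TPM and quantile scaling (0.0814, 0.19 and 0.0715). The same held when only the compared groups were fitted (0.105) and without the mixture-like libraries (0.1515). Day 30 gave 9.53 ± 2 in controls and 22.8 ± 7.89 FPKM in grafts, 1.14 (SE 0.37, adjusted p = 0.0213), lost without control replicate 1 (0.0595) or graft replicate 2 (0.0756). TPM scaling (0.17) and omission of the mixture-like libraries (0.0782) lost it too. IGF1R, the kinase receptor for IGF1, was listed at 0 in 13 of 20 libraries and never above 0.08 FPKM, so nothing can be said of it.

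Macrophage markers were mostly higher in grafts, as IGF1 was. Of 5 tested markers, 4 were higher and 1 lower on day 14 and 4 were higher on day 30, and 8 markers summed to 12.1 to 13.3 FPKM in controls and 256 to 532 in grafts of day 14 and to 16 to 32.6 and 198 to 378 on day 30. CD68, MARCO, C1QA and C1QB were listed at 0 in all day 14 controls, and CD68 also in the day 30 controls and vein. In vein, IGF1 was 46.8 ± 12.1 FPKM with a macrophage sum of 44.8 to 83.3. The sum was 368, 256, 495 and 532 FPKM in grafts of day 14 and 198.5, 358, 378 and 324 in those of day 30, lowest in day 14 replicate 2 and day 30 replicate 1, the grafts in which IGF1 was highest on each day. The part of macrophages in the IGF1 difference was not tested.

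Of the FGF ligands, FGF23 and FGF7 were higher in grafts on both days, FGF9 and FGF16 were lower on both, and FGF1 changed direction. FGF23, a hormone of phosphate balance normally made by bone, was listed at 0 in all 4 controls of day 14 and read 0.97, 0.44, 7.6 and 8.84 FPKM in the grafts (adjusted p = 0.001), high in replicates 3 and 4. On day 30 it read 0, 0, 0.05 and 0 FPKM in controls and 13, 6.06, 6.54 and 8.39 in grafts, a log2 difference of 3.18 (SE 0.45, adjusted p = 2.6e-05). The day 14 call was lost with those controls as 1 sample (log2 difference 1.98). The day 30 call held in all alternatives that could be run for FGF23, which was not in the fit that left out genes with a listed 0. FGF7, which mesenchymal cells make for epithelial receptors, read 0.34, 0.54, 0.28 and 0.35 FPKM in controls and 2.23, 1.94, 2.3 and 3.3 in grafts of day 14, and 0.96, 0.36, 0.35 and 0.23 and 7.02, 4.36, 2.8 and 4.96 on day 30. All grafts were above all controls, 1.31 (SE 0.21, adjusted p = 4.1e-05) and 1.95 (SE 0.21, adjusted p = 1.1e-06), although the day 14 call was lost with those controls as 1 sample and without the mixture-like libraries (adjusted p = 0.058). FGF1, which binds all FGF receptors, read 4.01, 3.82, 4.05 and 3.89 FPKM in controls and 1.16, 1.23, 1.45 and 1.21 in grafts of day 14. Controls of day 30 read 2.21, 2.3, 2.74 and 2.91 FPKM and grafts 7.15, 7.79, 5.41 and 7.08. It was thus lower in all grafts of day 14, a log2 difference of -1.13 (SE 0.11, adjusted p = 9.7e-08), and higher in all grafts of day 30, 1.15 (SE 0.11, adjusted p = 2.0e-07).

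Lower on both days were FGF9 and FGF16, secreted FGFs of the same subfamily. FGF9 was 1.19 ± 0.148 in controls against 0.0275 ± 0.0222 FPKM in grafts on day 14 and 2 ± 1.22 against 0.158 ± 0.0932 on day 30, with differences of -1.09 (SE 0.22, adjusted p = 4.1e-04) and -1.28 (SE 0.22, adjusted p = 1.5e-04). The day 14 call of FGF9 was lost with those controls as 1 sample and without the mixture-like libraries (adjusted p = 0.132). FGF16 was 2.29 ± 0.32 against 0.29 ± 0.0497 FPKM and 4.51 ± 0.924 against 1.83 ± 0.665, with differences of -1.34 and -0.98 (adjusted p = 1.7e-06 and 1.2e-04). FGF12, an intracellular FGF that binds sodium channels, did not pass on day 14 (adjusted p = 0.0807) and was 1.01 ± 0.38 against 0.22 ± 0.122 FPKM on day 30, a log2 difference of -0.71 (SE 0.24, adjusted p = 0.0255), lost without graft replicate 2 (0.0625) or graft replicate 3 (0.0587). FGF10, another mesenchymal ligand, passed on neither day (adjusted p = 0.504 and 0.387).

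FGF receptors could hardly be read from the table. FGFR1, the main FGF receptor of mesenchymal cells, was listed at 0 in 17 of 20 libraries, and FGFR2 stayed under 1 FPKM. FGFR4 was the only FGF receptor tested, at 0.47, 0.83, 0.39 and 0.46 FPKM in controls and 2.31, 1.66, 1.64 and 0.86 in grafts of day 14, a log2 difference of 0.75 (SE 0.22, adjusted p = 0.007). Every graft of day 14 lay above every control, and the call was lost with quantile normalization (adjusted p = 0.156) and with the day 14 controls as 1 sample (0.155). By day 30 the values were 0.9, 0.42, 0.22 and 1.43 FPKM in controls and 0.5, 0.44, 0.53 and 1.25 in grafts (adjusted p = 0.942). Genes of these families that carry no symbol in the table were outside the choice of genes. Matched by NCBI gene number, FGF2 differed by -2.55 (SE 0.31, adjusted p = 2.1e-06) on day 14 and -1.30 (SE 0.31, adjusted p = 0.003) on day 30, and FGF13 by -2.51 and -2.24 (adjusted p = 1.9e-07 and 1.8e-06). VEGFA, matched the same way, was 1.17 ± 0.13 FPKM in controls and 1.67 ± 1.08 in grafts of day 14 and passed on neither day (adjusted p = 0.553 and 0.296). IGFBP7, a binding protein with low affinity for IGF1 and also matched in this way, was 795 ± 20 FPKM in controls and 1365 ± 485 in grafts of day 14, and 1198 ± 75.8 and 1916 ± 162 on day 30. It lay above IGFBP4 in every library and was higher in all grafts than in the controls of the same day, a log2 difference of 0.72 (SE 0.16, adjusted p = 7.4e-04) on day 14 and 0.68 (SE 0.16, adjusted p = 0.002) on day 30.

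**Figure D2:**
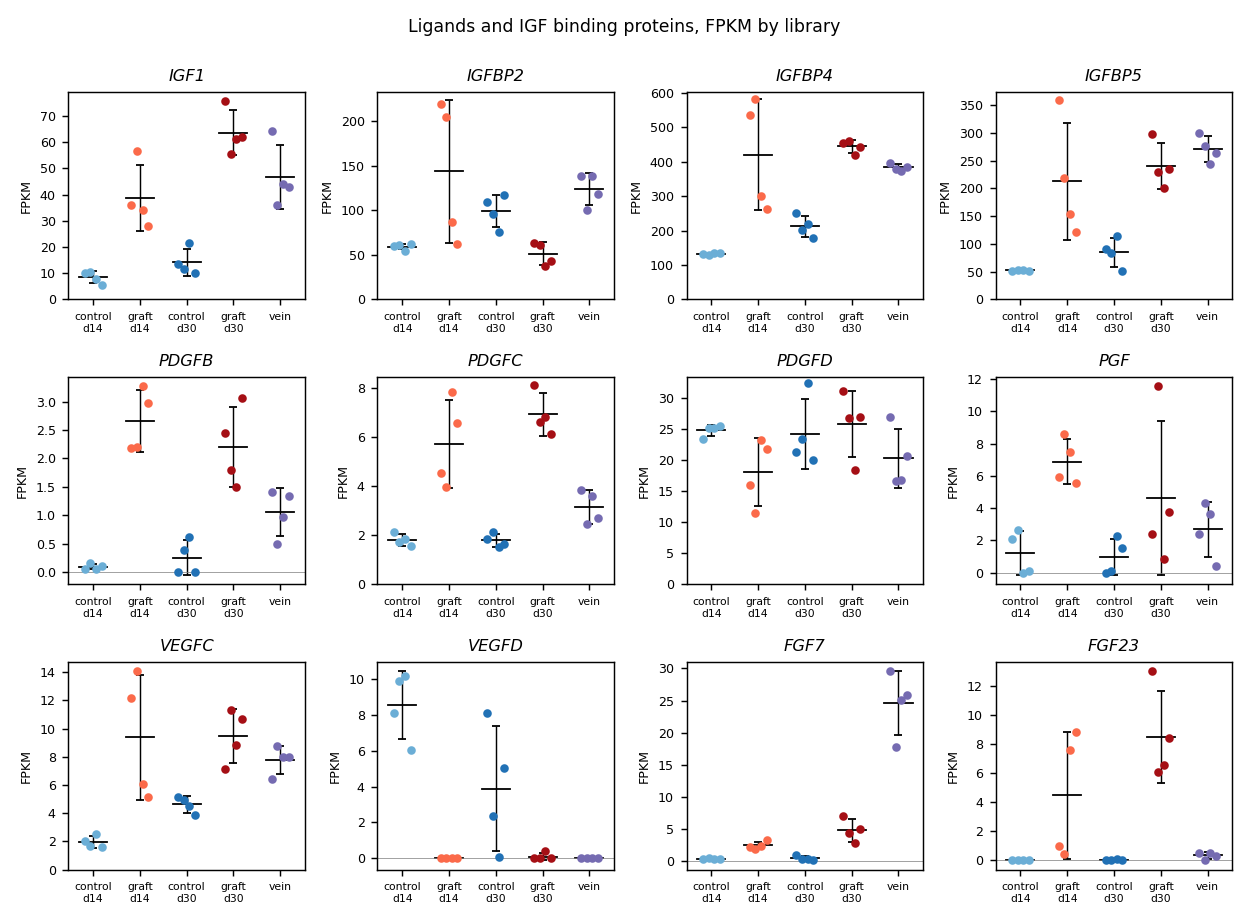
FPKM of 12 ligands and IGF binding proteins in each library (points) of the 5 groups, with the mean (line) and SD (bars) of the 4 libraries; each panel has its own axis starting at or below 0. IGF1, IGFBP4 and IGFBP5 are higher in all grafts than in the controls of the same day, VEGFD is near 0 in grafts and vein, and FGF7 is highest in vein at 24.6 FPKM.

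All 3 tested ERBB receptors were lower in grafts of day 14, against 17% of all genes. ERBB3 was lower on day 30 as well, where 11.6% of all genes were. ERBB3, the neuregulin receptor of Schwann cells, read 5.78, 5.71, 5.81 and 5.2 FPKM in controls and 0.31, 0.28, 0.44 and 0.37 in grafts of day 14, and 5.06, 4.07, 2.58 and 6.5 and 0.31, 0.19, 0.3 and 0.29 on day 30. All 8 grafts lay far under all controls, with differences of -2.29 (SE 0.17, adjusted p = 5.7e-09) and -2.08 (SE 0.17, adjusted p = 5.0e-08). Schwann cell and nerve markers moved with it: 6 of 7 tested were lower and 1 higher on day 14, and 4 of 7 were lower on day 30. They summed to 65.9 to 78.5 FPKM in controls and 5.36 to 32.1 in grafts of day 14, and to 25.8 to 82.1 and 8.64 to 25.5 on day 30, with PRPH and CDH19 listed at 0 in grafts of day 14 and CDH19 in controls of day 30. MBP, a myelin protein gene, went against the others, at 2.54, 2.03, 1.08 and 0.7 FPKM in controls and 5.1, 6.19, 25.6 and 30.1 in grafts of day 14, and it made up most of the sums of those grafts. Without MBP, singled out after its values were seen, the other 6 markers summed to 64.8 to 76.5 FPKM in controls and 0.26 to 2.13 in grafts of day 14, and to 22.6 to 77.9 and 1.75 to 10.1 on day 30. Within the day 14 grafts the sum with MBP was highest in replicate 4, at 32.1 FPKM, of which MBP was 30.1, and ERBB3 was 0.37 there. The sum without MBP was highest in replicate 3, at 2.13 FPKM, where ERBB3 was 0.44. The part of nerve tissue in the ERBB3 difference was not tested. ERBB2, the shared partner receptor without a ligand, read 7.52, 8.38, 7.2 and 7.45 FPKM in controls and 4.66, 5.48, 4.23 and 3.46 in grafts of day 14, a log2 difference of -0.67 (SE 0.15, adjusted p = 8.0e-04). On day 30 it read 6.5, 4.74, 3.25 and 6 and 4.55, 4.49, 4.31 and 4.13 FPKM and did not pass (adjusted p = 0.442). EGFR, the receptor of EGF and HBEGF, was 1.58 ± 0.41 against 0.505 ± 0.21 FPKM on day 14, a log2 difference of -0.77 (SE 0.17, adjusted p = 0.001), and 1.56 ± 0.303 against 0.912 ± 0.384 on day 30 (adjusted p = 0.0584). With the day 14 controls as 1 sample, the day 14 calls of ERBB2 and EGFR were lost (adjusted p = 0.0609 and 0.0532).

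EGF family ligands were scarce. HBEGF, which macrophages and endothelium release under stress, was the only ligand tested, and read 0.32, 1.01, 0.72 and 0.86 FPKM in controls and 3.19, 3.53, 3.05 and 0.85 in grafts of day 14. On day 30 it read 2.06, 6.99, 11.2 and 0.84 FPKM in controls, high in replicates 2 and 3, and 10.9, 2.19, 7.86 and 6.16 in grafts. The groups overlapped on both days (adjusted p = 0.121 and 0.477). EGF, AREG, EREG and the receptor ERBB4 stayed under 1 FPKM in every library.

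AXL and MERTK, receptors for GAS6 and protein S that mediate the clearance of dying cells, were both read at over 10 FPKM in the day 14 controls. AXL read 14.4, 18.6, 13.8 and 14.4 FPKM in controls of day 14 and was listed at 0 in all 4 grafts (adjusted p = 1.3e-07). Controls of day 30 read 5.25, 11.7, 7.93 and 13.2 FPKM and grafts 0, 0, 0.7 and 1.05, a log2 difference of -2.87 (SE 0.39, adjusted p = 1.5e-05). No graft overlapped a control on either day, and both calls held under all alternatives that could be run for AXL. It was not in the fit that left out genes with a listed 0. Listed zeros beside high values occur elsewhere in the table: 282 of the 8657 genes tested were at 0 in some library and at 20 FPKM or more in another. AXL, at most 18.6 FPKM, is not among them, and the count also holds genes that differ between groups. It cannot separate a failed estimate from a true absence. Whether the zeros of AXL, or those of VEGFD, are failed estimates was not tested. MERTK, the macrophage member of the pair, read 18.9, 16.9, 16.6 and 17.9 FPKM in controls and 9.57, 8.87, 17.4 and 19.4 in grafts of day 14, and 12.8, 16.1, 18.4 and 6.92 and 13.2, 12.2, 10.8 and 13.9 on day 30. It passed on neither day (adjusted p = 0.187 and 0.936), and its grafts of day 14 were high in replicates 3 and 4.

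KIT and FLT3, receptors of blood cell precursors, mast cells and dendritic cells, rose from levels near 0. KIT read 0.07, 0.06, 0.22 and 0.08 FPKM in controls and 4.43, 2.52, 2.68 and 2.77 in grafts of day 14, and 0.05, 0.15, 0.11 and 0.15 and 1.9, 1.99, 1.2 and 1.65 on day 30. Its grafts were all above the controls, 1.87 (SE 0.14, adjusted p = 7.1e-09) and 1.26 (SE 0.14, adjusted p = 1.8e-06). FLT3 read 0.28, 0.15, 0.09 and 0 FPKM in controls and 3.99, 2.4, 6.1 and 3.61 in grafts of day 14, and 0, 0.09, 0 and 0 and 1.37, 7.27, 5.98 and 4.99 on day 30, again without overlap, 2.11 (SE 0.30, adjusted p = 1.3e-05) and 2.39 (SE 0.30, adjusted p = 7.1e-06). All 4 of these calls held in every alternative that could be run for them. Both genes were too low for the filter at 5 FPKM, and FLT3 was not in the fit that left out genes with a listed 0. Mast cell markers gave 2 higher of 3 tested on day 14 and 0 higher and 1 lower on day 30, with sums over 4 genes of 1.53 to 4.12 FPKM in controls and 4.04 to 7.35 in grafts of day 14 and 3.66 to 9.87 and 3.6 to 4.44 on day 30. T and B cell markers gave 5 higher of 5 and 4 higher of 5, with sums over 5 genes of 0.23 to 2 and 43 to 80.8 FPKM, then 1.46 to 13.9 and 86.3 to 434. Most of that graft sum was JCHAIN, an antibody joining chain of plasma cells, at 67.8, 28, 43.8 and 45 FPKM in grafts of day 14 and 269.5, 80.2, 413 and 243 on day 30. Their part in the KIT and FLT3 differences was not tested.

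KITLG, the ligand of KIT, moved apart from its receptor on day 14. It read 8.32, 7.72, 8.27 and 8.31 FPKM in controls and 5.99, 6.2, 3.96 and 3.47 in grafts, a log2 difference of -0.66 (SE 0.17, adjusted p = 0.004), a call lost with those controls as 1 sample (adjusted p = 0.121). By day 30 the values were 2.06, 2.4, 4.29 and 1.82 FPKM in controls and 7.79, 8.95, 8.97 and 9.55 in grafts, with every graft above every control, a log2 difference of 1.47 (SE 0.17, adjusted p = 3.1e-06). HGF, a ligand from mesenchymal cells for MET, read 5.36, 6.57, 4.5 and 7.77 FPKM in controls and 5.01, 4.03, 3.24 and 2.74 in grafts of day 14, a log2 difference of -0.57 (SE 0.21, adjusted p = 0.0306), and 4.33, 5.8, 6.79 and 4.16 against 3.74, 3.19, 2.45 and 5.15 on day 30 (adjusted p = 0.11). The groups overlapped on both days, and the day 14 call was lost without control replicate 2 (adjusted p = 0.0719) or 4 (0.103) and without graft replicate 3 (0.0732) or 4 (0.0959). MET itself read 3.23, 0.2, 0 and 0.4 FPKM in grafts of day 14 and 4.35, 2.19, 4.52 and 2.99 on day 30, against 0, 0, 1.34 and 0.07 and 4.32, 2.98, 0 and 0.82 in controls, too scattered to pass (adjusted p = 0.64 and 0.34).

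ALKAL2, a ligand of the ALK and LTK receptors, was lower in grafts on both days. It read 1.15, 1.75, 1.55 and 0.84 FPKM in controls of day 14 and was listed at 0 in all 4 grafts (adjusted p = 1.8e-06). On day 30 it read 13.5, 13.3, 15.3 and 15.7 FPKM in controls and 1.49, 0.88, 1.7 and 1.26 in grafts, a log2 difference of -2.74 (SE 0.14, adjusted p = 3.2e-10). The controls of day 30 stood far above those of day 14 as well.

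**Figure D3:**
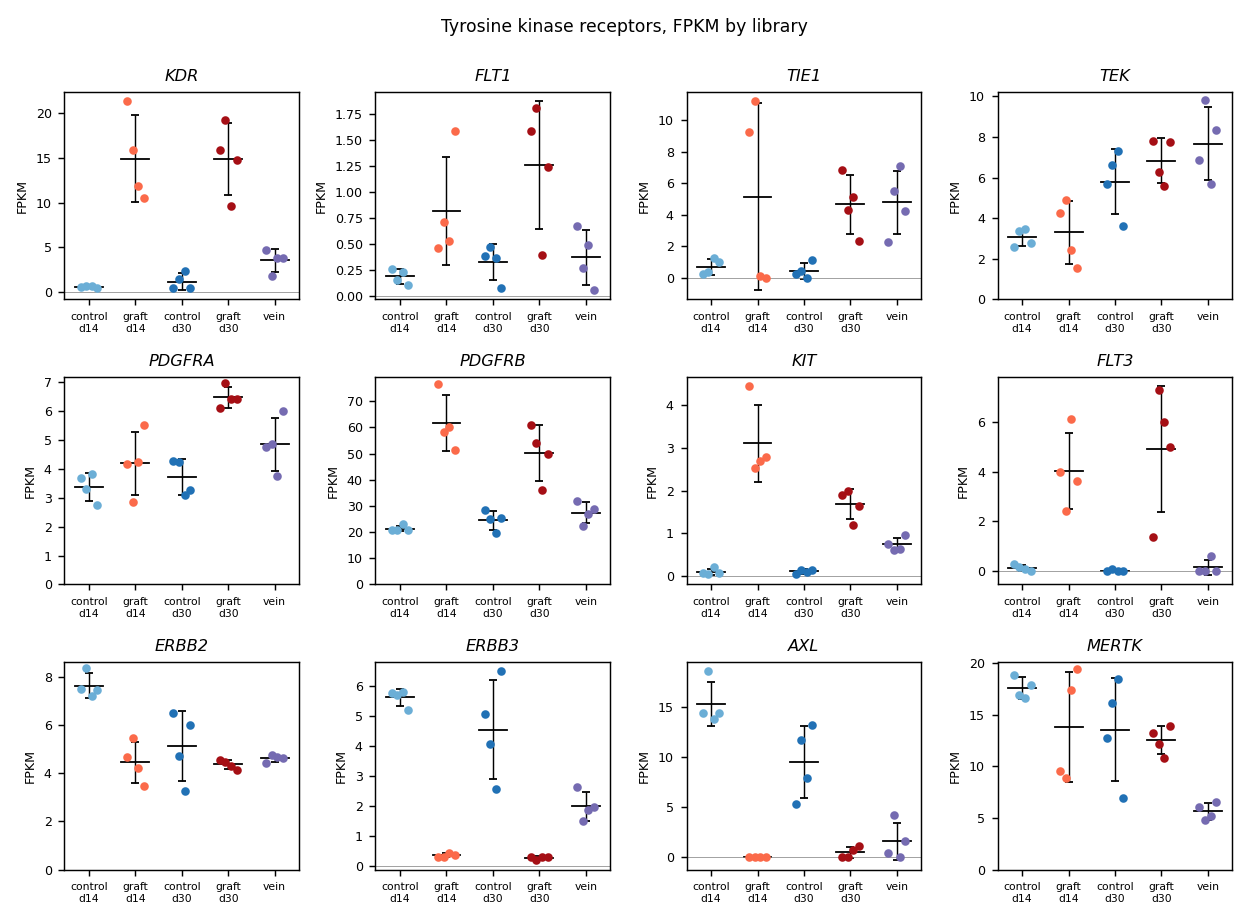
FPKM of 12 receptors in each library (points) of the 5 groups, with the mean (line) and SD (bars) of the 4 libraries; each panel has its own axis starting at or below 0. KDR and PDGFRB are higher in all 8 grafts than in the controls, ERBB3 and AXL are near 0 in grafts, and TIE1 is split within the grafts of day 14, with 9.27 and 11.2 FPKM in replicates 1 and 2.

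Whether the graft difference itself changed between the days was tested as the day 30 difference minus the day 14 difference. In 4 genes it moved upwards and in 2 downwards, 8.33% and 4.17% of the 48, against 5.38% and 7.57% of all genes. FGF1 moved by 2.27 (SE 0.15, adjusted p = 6.0e-08), from lower to higher in grafts, and this held in every alternative. KITLG moved by 2.13 (SE 0.25, adjusted p = 4.8e-05) in the same way, ANGPT1 by 1.12 (SE 0.28, adjusted p = 0.0132) and PDGFA by 0.75 (SE 0.22, adjusted p = 0.0353). IGFBP2 moved by -2.03 (SE 0.43, adjusted p = 0.006) and ALKAL2 by -1.54 (SE 0.21, adjusted p = 1.7e-04). The value of ALKAL2 rests on the pseudocount, since grafts of day 14 were listed at 0: with 0.1 FPKM in place of 1 the difference was 0.41 (adjusted p = 0.434). The calls of ANGPT1 and IGFBP2 were lost with the day 14 controls as 1 sample (adjusted p = 0.216 and 0.154), and that of KITLG with this and without the mixture-like libraries (0.283). PDGFA was lost in 16 of 28 alternatives, among them leaving out any control of day 14, replicate 1, 3 or 4 of the day 14 grafts, replicate 1 of the day 30 controls and replicate 1 or 2 of the day 30 grafts (adjusted p from 0.0508 to 0.0746 for these).

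**Figure D4:**
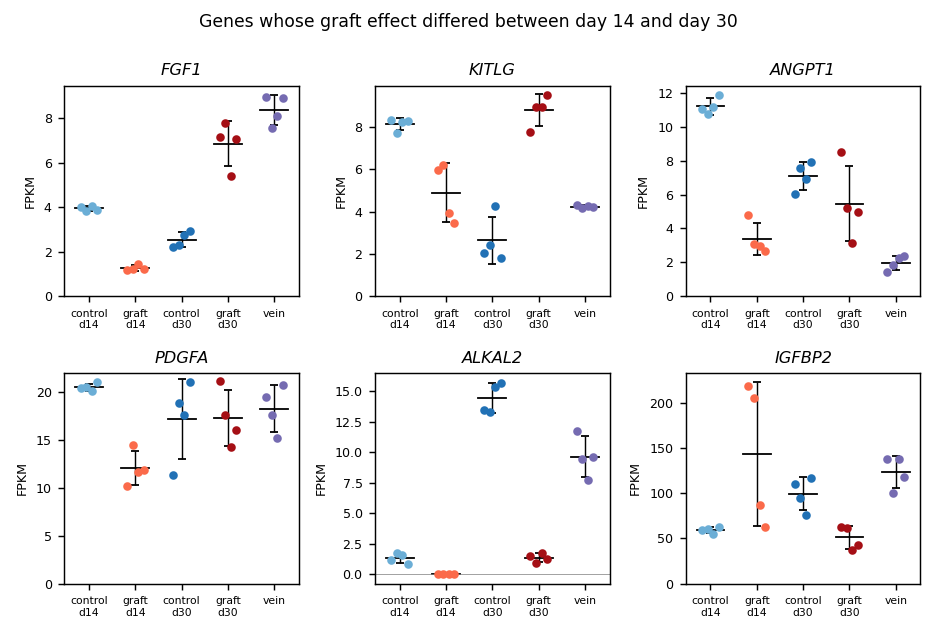
FPKM by library (points) for the 6 genes whose graft difference changed between day 14 and day 30, with the mean (line) and SD (bars) of 4 libraries per group. FGF1 and KITLG lie under the controls in grafts of day 14 and above them on day 30, and ALKAL2 is listed at 0 in all grafts of day 14 while its controls are near 1.32 FPKM on day 14 and 14.5 on day 30.

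The controls had themselves changed between the days for some of these genes. Between control arteries of day 30 and day 14, 6 genes were higher and 3 lower, 12.5% and 6.25% of the 48, against 6.28% and 4.45% of all genes. ALKAL2 had the largest difference, 2.75 (SE 0.14, adjusted p = 1.4e-09), the only 1 of the 9 calls that held in every alternative. ANGPTL1 differed by 1.32 (SE 0.16, adjusted p = 4.4e-05), FGF16 by 0.73 and VEGFC by 0.93 (adjusted p = 0.007 and 0.0154), and KITLG by -1.37 (SE 0.17, adjusted p = 7.8e-05). The other calls were ANGPTL7 (0.80), IGFBP4 (0.67), FGF1 (-0.49) and ERBB2 (-0.53), with adjusted p of 0.0216, 0.0292, 0.007 and 0.0265. IGFBP4 was lost without any of 7 of the 8 libraries (adjusted p up to 0.079, without control day 30 replicate 1), all but control day 30 replicate 4. ERBB2 was lost without control day 14 replicate 1, 2 or 4 or control day 30 replicate 2 or 3 (up to 0.0798), ANGPTL7 without control day 14 replicate 4 or control day 30 replicate 2 or 3 (up to 0.0774), and VEGFC without control day 14 replicate 4 (0.0503).

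Within the grafts, 10 genes were higher and 3 lower on day 30 than on day 14, 20.8% and 6.25% of the 48, against 8.01% and 8.31% of all genes. FGF1 rose by 1.79 (SE 0.11, adjusted p = 1.1e-08) and ANGPTL1 by 1.71 (SE 0.16, adjusted p = 1.8e-06), and both calls held in every alternative. ALKAL2, listed at 0 on day 14, held in every alternative that could be run for it (adjusted p = 3.5e-05). It was not in the fit that left out genes with a listed 0. FGF16 (1.10), TEK (0.93) and KITLG (0.76) were higher too (adjusted p = 2.5e-04, 0.0136 and 0.007), but TEK and KITLG were lost without the mixture-like libraries (0.143 and 0.106), and FGF16 without these and with the day 14 controls as 1 sample (0.0701). IGFBP2 was lower by -1.31 (SE 0.31, adjusted p = 0.008), lost when only the grafts were fitted (0.116), and KIT by -0.60 (SE 0.14, adjusted p = 0.008), lost without the mixture-like libraries (0.0606). The remaining calls each hung on single libraries. IGF1 (0.74, adjusted p = 0.0471) was lost without any graft library other than day 14 replicate 2 (up to 0.133, without day 14 replicate 4). PDGFA (0.48, 0.048) was lost without day 14 replicate 1, 3 or 4 or day 30 replicate 1, 2 or 4 (up to 0.155), and FGF7 (0.71, 0.0279) without day 14 replicate 2 or 3 or day 30 replicate 1 or 4 (up to 0.103). PDGFRA (0.55, 0.0215) was lost without day 14 replicate 2 (0.0569), and IGF2BP2, an RNA-binding protein (-0.66, 0.0293), without day 30 replicate 1, 3 or 4 (up to 0.0736).

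Unoperated vein, the site into which the arteries were moved, already differed from unoperated artery in many of these genes. Against the mean of both control groups, 19 of 48 genes were higher in vein and 11 lower, 39.6% and 22.9%, against 25.2% and 12% of all genes. FGF7 stood out, with 29.6, 17.7, 25.1 and 25.9 FPKM in the veins, all above every artery library, a log2 difference of 4.16 (SE 0.18, adjusted p = 1.2e-11). IGFBP5 read 300.0, 277, 244 and 264 FPKM in vein, a log2 difference of 2.04 (SE 0.23, adjusted p = 1.5e-06), and IGF1 read 64.1, 36, 44 and 43, 2.00 (SE 0.21, adjusted p = 8.6e-07). ANGPT4 read 3.57, 15.4, 6.81 and 7.02 FPKM, high in replicate 2, a log2 difference of 1.84 (SE 0.32, adjusted p = 1.6e-04). PDGFRL (1.39), IGFBP4 (1.19), FGF1 (1.16), VEGFC (1.11), FGF12 (0.89) and ALKAL2 (0.83) were also higher, with adjusted p up to 0.002. These 10 calls held in every alternative that could be run for them, always against the mean of both control groups. FGF12 was too low to enter the fit with the filter at 5 FPKM. For ALKAL2 those groups differ: vein, at 7.71 to 11.8 FPKM, lay under every control of day 30 (13.3 to 15.7). It lay above every control of day 14 (0.84 to 1.75). KDR was 3.52 ± 1.26 FPKM in vein, a log2 difference of 1.29 (SE 0.25, adjusted p = 5.9e-04), under the 14.9 ± 4.87 and 14.9 ± 4.02 of grafts, and TEK was 7.68 ± 1.8, 0.72 (SE 0.21, adjusted p = 0.0107).

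Lower in vein, in every alternative that could be run for them, were 6 genes. ANGPTL7, VEGFD and AXL, with a listed 0 in vein, were not in the fit that left out such genes. ANGPTL7 read 0.01, 0, 0 and 0.03 FPKM, a log2 difference of -3.16 (SE 0.19, adjusted p = 4.9e-10), and VEGFD was listed at 0 in all 4 veins (adjusted p = 2.6e-05). AXL read 0.4, 4.15, 0 and 1.6 FPKM, a log2 difference of -2.61 (SE 0.34, adjusted p = 8.5e-06), and ANGPT1 read 1.43, 1.81, 2.24 and 2.35, -1.76 (SE 0.17, adjusted p = 2.9e-07). MERTK was 5.63 ± 0.785 FPKM, a log2 difference of -1.28 (SE 0.21, adjusted p = 1.4e-04), and ERBB3 was 1.98 ± 0.484, -1.01 (SE 0.15, adjusted p = 3.5e-05). Other calls for vein were lost in at least 1 alternative. They rested on single libraries for HGF (-0.64, lost without vein replicate 2, adjusted p = 0.0547), TIE1 (1.87, without vein replicate 3, 0.0541) and ANGPT2 (0.55, without vein replicate 1 or 3, up to 0.0568). PDGFRA (0.36) was lost without control day 14 replicate 2 or 4, control day 30 replicate 3 or 4 or vein replicate 1, 2 or 4 (up to 0.175). ERBB2 (-0.35) was lost without control day 14 replicate 1 or 2, control day 30 replicate 1 or 4 or any vein library (up to 0.0858). FGFR4 (-0.49) was lost without any control of day 14, control day 30 replicate 1 or 4 or any vein library (up to 0.141). PDGFB, PDGFC and KIT were higher in vein (0.80, 0.56 and 0.65), ANGPTL1 was higher (0.77), and FGF16 and IGF2R were lower (-0.78 and -1.21). ANGPTL1 in vein, at 50.5 ± 5.94 FPKM, was near the controls of day 30 (46.9 ± 7.78) and far above those of day 14 (18 ± 0.844). The vein and graft comparisons use the same controls, so the vein values stand beside those of the grafts without a test between them.

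**Figure D5:**
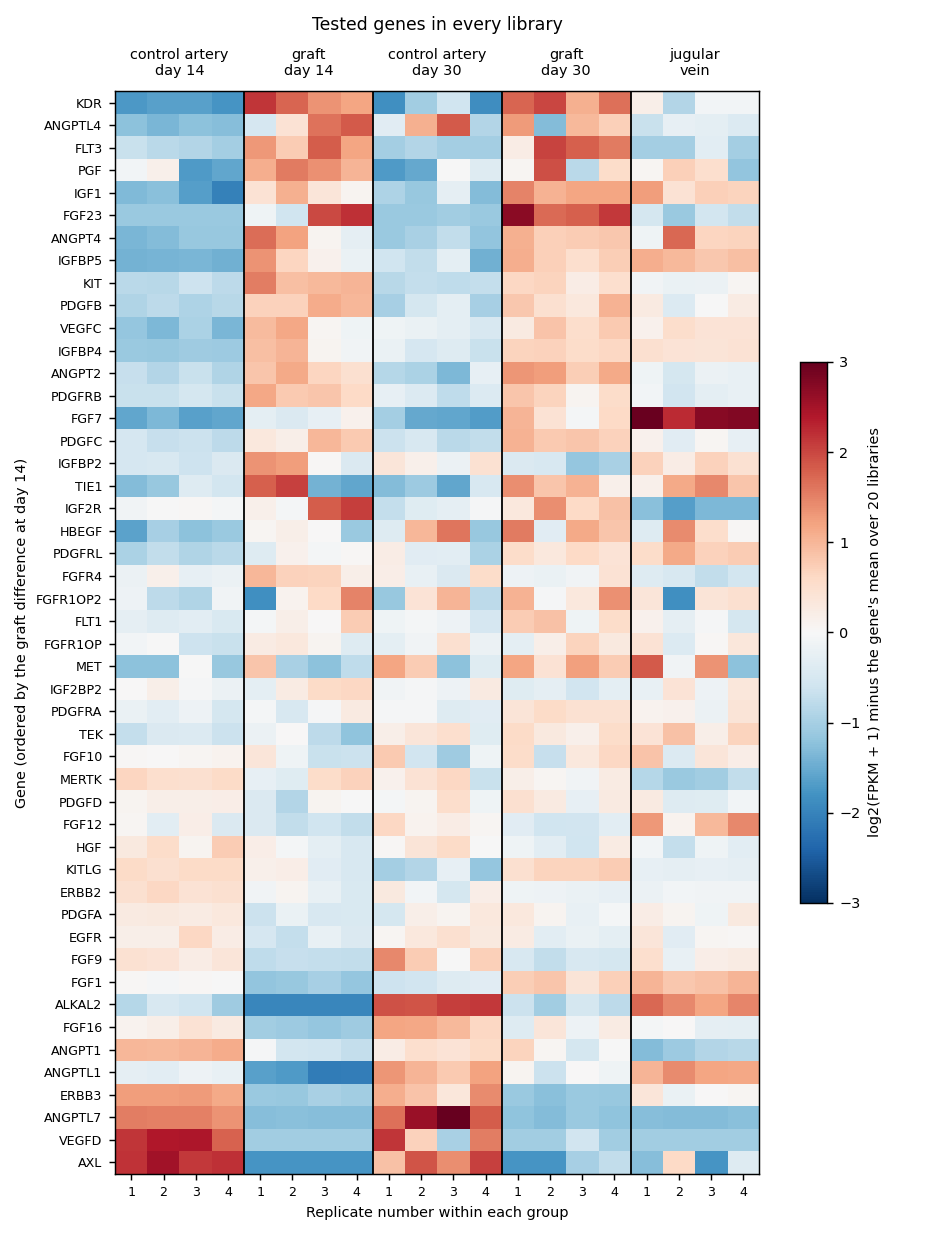
The 48 tested genes (rows, ordered by the graft difference on day 14) in all 20 libraries (columns, by group and replicate number); colour gives log2(FPKM + 1) minus the gene's mean over the 20 libraries, red above and blue below, limited to 3 either way. The 4 controls of day 14 are nearly alike, the grafts of day 14 fall into replicates 1 and 2 and replicates 3 and 4 for genes such as TIE1, IGFBP2, IGF2R and FGF23, and FGF7 is highest in vein.

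Grafts of day 14 were uneven in several of these genes. In replicates 1 and 2, IGFBP2, IGFBP4, VEGFC, ANGPT4, TIE1 and TEK were higher than in replicates 3 and 4, and FGF23, IGF2R, ANGPTL4 and MERTK were lower, as the values above show. PDGFC was also lower there, at 4.53 and 3.96 FPKM against 7.84 and 6.59. The endothelial sum was 438 and 509 FPKM in replicates 1 and 2 and 248 and 208 in replicates 3 and 4, and the macrophage sum was 368 and 256 against 495 and 532. Controls of day 30 were uneven too. In their replicates 2 and 3, KDR, PDGFB, HBEGF and ANGPTL4 were higher than in replicates 1 and 4, and VEGFD, ERBB3 and ANGPTL1 were lower. The endothelial sum was 125 and 172 FPKM there against 95.7 and 72.5, and the lymphatic sum 104 and 191 against 20.6 and 30.3. All these genes were picked after their values were seen, and no test was made.

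Of 147 further genes of the pathway in 7 lists, 88 were tested. For all genes the shares higher and lower were 36.5% and 17% on day 14 and 26% and 11.6% on day 30, with median differences of 0.26 and 0.18. No list was tested against them. Among 10 other growth factors, 3 were higher and 3 lower on each day, 30% and 30%, with medians of 0.08 and 0.05. GRN, progranulin, was 15.2 ± 2.58 FPKM in controls and 209.9 ± 73.6 in grafts of day 14, a log2 difference of 3.65 (SE 0.24, adjusted p = 1.5e-09), and PROS1, protein S and a ligand of AXL and MERTK, was 40.9 ± 1.65 and 16.4 ± 5.26, -1.31 (SE 0.15, adjusted p = 1.1e-06). IL34, a ligand of the macrophage receptor CSF1R, was listed at 0 in all controls of both days and reached 7.35 ± 2.33 and 5.96 ± 2.51 FPKM in grafts (adjusted p = 1.9e-08 and 1.5e-07). Of 7 other receptor tyrosine kinases, 2 were higher and 3 lower on day 14 (28.6% and 42.9%, median -0.49) and 2 higher and 2 lower on day 30 (28.6% and 28.6%, median -0.03), with PTK7, a Wnt co-receptor, at 2.44 and 1.32, ROR1, a Wnt receptor, at -1.41 and -1.46, and DDR2, a collagen receptor, at -1.19 and -0.63 (adjusted p up to 0.009). Of 17 co-receptors and heparan sulfate carriers, 7 were higher and 3 lower on day 14 (41.2% and 17.6%, median 0.30) and 5 and 2 on day 30 (29.4% and 11.8%, median 0.42), shares near those of all genes. The syndecan SDC2 was lower, -0.68 and -0.57, and NDST1, a heparan sulfate modifying enzyme, higher, 0.42 and 0.92 (adjusted p up to 0.006). The syndecan SDC1 was higher on day 14 (1.55 (SE 0.23, adjusted p = 2.1e-05)) and did not pass on day 30 (adjusted p = 0.253).

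Downstream of the receptors, 3 of 14 adaptors and RAS or MAP kinase genes were higher and 6 lower on day 14 (21.4% and 42.9%, median -0.39), and 2 were higher and 2 lower on day 30 (14.3% and 14.3%, median 0.15). PTPN11, a phosphatase that passes the signal on to RAS, was 11.5 ± 0.902 FPKM in controls and 4.45 ± 2.09 in grafts of day 14, a log2 difference of -1.29 (SE 0.23, adjusted p = 1.1e-04). The scaffold KSR1 was lower on both days, -1.29 and -0.57, and the adaptor GAB2 on day 14, -1.13 (adjusted p up to 0.0307). Of 15 PI3 kinase, AKT and mTOR genes, 3 were higher and 4 lower on day 14 (20% and 26.7%, median -0.06) and 3 and 2 on day 30 (20% and 13.3%, median 0.09), with the share of higher genes under that of all genes on both days. EIF4EBP1, a translation repressor that mTOR inactivates, was 48 ± 6.95 FPKM in controls and 158 ± 50.5 in grafts of day 14, a log2 difference of 1.65 (SE 0.21, adjusted p = 4.1e-06). The transcription factor FOXO3 was lower (-1.91 and -1.04) and the catalytic subunit PIK3CB higher (1.40 and 0.95, adjusted p up to 0.0118). Of 16 feedback inhibitors, 5 were higher and 4 lower on day 14 (31.2% and 25%, median 0.19) and 6 and 1 on day 30 (37.5% and 6.25%, median 0.51). The MAP kinase phosphatase DUSP4 was higher (1.69 and 1.36), as was the adaptor SH2B3 (1.55 and 0.62), and the receptor-binding inhibitor GRB14 was lower (-2.25 and -1.34, adjusted p up to 0.007). Of 9 genes that process or release growth factors, 5 were higher and 1 lower on day 14 (55.6% and 11.1%, median 0.90) and 4 and 1 on day 30 (44.4% and 11.1%, median 0.83). PLAU, the protease that activates plasminogen, was 22.3 ± 1.01 FPKM in controls and 68.5 ± 2.96 in grafts of day 14, a log2 difference of 1.57 (SE 0.14, adjusted p = 5.2e-08). The heparan sulfate cutter HPSE was higher (0.90 and 1.43) and STC2, an inhibitor of the protease that cuts IGFBP4, lower (-2.65 and -0.53, adjusted p up to 0.0132).

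The 27 genes that were not tested include 5 listed at 0 in every library (FGF4, FGF11, FGF17, FGF19 and FGF20). A further 17 were above 0 somewhere but under 1 FPKM everywhere, among them AREG, EGF, EREG, ERBB4, FGF5, FGF6, FGF14, FGF21, FGFR2, FLT4, IGF1R, IGFBP1, IGFBP6, IGFBPL1, IGF2BP1 and IGFLR1. The other 5, ALKAL1, FGF18, FGFR1, ANGPTL2 and IGF2BP3, reached 1 FPKM in fewer than 4 libraries. ALKAL1, the other ALK ligand, read 2.07, 0.15, 0.86 and 1.42 FPKM in vein and was listed at 0 in all grafts, and FGFR1 reached 1.99 FPKM in graft day 30 replicate 1 and 1.01 in vein replicate 2. FGFR1OP and FGFR1OP2, caught by name only, passed in none of the comparisons.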

How the data were processed

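Paired reads of total RNA from 20 rabbit vessel samples came from a NovaSeq X Plus instrument, per the labels' protocols. The authors deposited 1 table of FPKM per transcript, and per the submitters' processing notes the tools were DESeq2, fastp, HISAT2, RSEM and StringTie, with versions and genome build not given in the sources used here. No table with read numbers was used, so depth and counting error are unknown.

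From the deposited FPKM, 24964 transcript rows were summed to 23669 genes (3 of the 75 described genes had more than 1 transcript), and 8657 genes that reached 1 FPKM in 4 or more libraries were tested. Differences were fitted with limma 3.58.1 (R 4.3.3) on log2(FPKM + 1), with a mean per group over all 5 groups, moderated variances that follow the mean level, two-sided tests and Benjamini-Hochberg adjustment over all 8657 genes. Errors of FPKM are SD and errors of log2 differences are limma's standard errors. Tables and plots were made with Python 3.11.15, pandas 2.3.3, numpy 2.4.6 and matplotlib 3.10.9, and the fit was tested on simulated data.

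Alternatives were scaling to TPM, by median of ratios or by quantiles, a pseudocount of 0.1, no filter or one at 5 FPKM, a fit of the compared groups alone, a replicate block, omission of each library, of genes with a listed 0 or of the 4 mixture-like libraries, the day 14 controls as 1 sample, and both of the last. The genes, gene lists, tests and alternatives were chosen with earlier results of these data known. Values by library are given for the 6 largest rises and falls among genes averaging 5 FPKM or more in the higher group in each graft comparison, 4 in the others, and the ligand and receptor of each family with the highest mean, and pathway lists name up to 3 genes each with the smallest adjusted p. Sequences are not shown, because no sequence table of this build was used. One of the untested genes is not reported here by name.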

Additional observations from a re-analysis of the deposited data

Results flagged for a closer look

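Within groups of 4 libraries, 134 sets of values with a mean of at least 1 FPKM were checked for a library far from the other 3, and 7 were, where chance gives about 1 in 20 sets. In control arteries of day 14, ANGPTL7 and ERBB3 were lowest in replicate 4, at 5.27 FPKM against 6 to 6.14 and at 5.2 against 5.71 to 5.81. AXL was highest in replicate 2 of that group, at 18.6 FPKM against 13.8 to 14.4, KITLG was lowest there, at 7.72 against 8.27 to 8.32, PDGFD was lowest in replicate 1, at 23.4 against 25.1 to 25.4, and PDGFRB was highest in replicate 3, at 22.97 against 20.74 to 20.98. KIT was highest in graft day 14 replicate 1, at 4.43 FPKM against 2.52 to 2.77. Leaving out any of these 5 libraries did not end a graft call of the gene concerned, and PDGFD had no such call.

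The graft difference changed between day 14 and day 30, by limma's test of the difference itself, in FGF1 (2.27 on the log2 scale), KITLG (2.13), ANGPT1 (1.12), PDGFA (0.75), ALKAL2 (-1.54) and IGFBP2 (-2.03). The controls of FGF1, KITLG and ALKAL2 also differed between the days.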

How the results depend on the processing

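The graft comparisons were the steadiest. Every alternative except those named here left the counts of higher and lower members and of all genes called within 1.5 times the reported ones, 344 of 396 counts in all. Leaving out each library in turn gave 19 to 22 members higher, 14 to 15 lower and 4290 to 4594 genes called on day 14, and 19 to 21, 8 to 12 and 2843 to 3151 on day 30. For the change between days it gave 3 to 4, 2 to 4 and 853 to 1403, for grafts of day 30 against day 14 7 to 11, 2 to 3 and 905 to 1644, for controls of day 30 against day 14 3 to 11, 2 to 4 and 612 to 931, and for vein 16 to 19, 8 to 12 and 2719 to 3279.

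With the day 14 controls as 1 sample, day 14 had 13 members higher and 2470 genes called. The change between days had 2 and 1 members and 70 genes, controls between days 1 and 0 members and 18 genes, and vein 7 members lower and 2002 genes. Without the 4 mixture-like libraries, the change between days had 2 members higher and 374 genes called, grafts between days 4 and 1 members and 412 genes, and controls between days 2 and 1 members and 437 genes. With both, day 14 had 11 members higher, 8 lower and 1623 genes, and day 30 had 1720 genes. Also with both, the change between days had 1 and 0 members and 5 genes, grafts between days 3 and 0 members and 85 genes, controls between days 1 and 0 members and 4 genes, and vein 9 and 5 members and 1067 genes. Fewer samples enter these fits, and no other cause was tested.

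TPM scaling gave 4 members lower and 560 genes for the change between days, 1 member lower and 827 genes for grafts between days, and 12 members higher and 1 lower for controls between days. Median-of-ratios scaling gave 5 members lower for controls between days. A pseudocount of 0.1 gave 1 member lower for the change between days and reversed ALKAL2 there, at 0.41. A filter at 5 FPKM gave 1 member lower for grafts between days, where fewer genes are tested. Fitting only the groups compared gave 3 and 0 members and 366 genes for grafts between days. Leaving out genes listed at 0 gave 7 members lower for vein. Unless stated, the cause was not tested.

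Whether same-numbered grafts and controls came from the same animal was not settled. Same-numbered deviations from the group means correlated between -0.107 and 0.127 on day 14 and between -0.18 and 0.063 on day 30. Other-numbered deviations correlated between -0.142 and 0.125 on day 14 and between -0.139 and 0.146 on day 30. Weak correlations of deviations from means of 4 libraries cannot exclude pairing. With the replicate block, day 14 had 21 members higher, 15 lower and 4573 genes called, and day 30 had 21, 11 and 3186. Depth limits cannot be given without read numbers, and genes near 1 FPKM or listed at 0 are the least certain.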
